A study of Mus musculus with 32 samples.

Results

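The arrays were those of the wild-type (WT) mice in a series of Affymetrix Mouse Gene ST arrays, in which RNA from cerebellum was set against RNA from blood of the same animal. The members were the samples whose labels read wildtype, 16 of the 32 arrays of the series, with 8 arrays from cerebellum and 8 from blood, and a single array for each mouse and tissue. The mice came from 2 experiments. In the first, 5 WT mice were the controls of Fmr1 knockout animals and had a C57BL/6 congenic background, and in the second, 3 WT mice were the controls of Tsc2+/- animals and had a mixed 129/SvJae-C57BL/6J background, so that strain and experiment cannot be told apart. All were killed at 8 to 10 weeks of age, and none of the 16 arrays came from an animal with the Fmr1 knockout or the Tsc2+/- allele. The labels give the sex as female and the methods as male. Kdm5d, a Y-linked histone demethylase, had intensities of 565 to 755 in cerebellum and 335 to 852 in blood, and Xist, the RNA that silences an X chromosome in females, had 44.5 to 76.8 in cerebellum and 35.3 to 62.6 in blood. Both tissues were taken whole, and in such samples fewer cells of a type and less RNA per cell cannot be told apart.

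The cerebellum consists largely of granule neurons, small excitatory cells whose axons contact the dendrites of Purkinje cells, the inhibitory neurons that carry the output of the cerebellar cortex. Bergmann glia, astrocytes, oligodendrocytes and microglia lie among them. Whole blood holds red cells, of which the youngest (reticulocytes) still contain RNA, platelets, which carry RNA from their megakaryocyte parents, and the neutrophils, monocytes and lymphocytes. Both tissues thus share few specialised cells, while every cell type in them uses ribosomes, mitochondria and proteasomes, apart from mature red cells.

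Values are the deposited intensities of 35556 probe sets, and a difference is the mean within-mouse log2 intensity in cerebellum minus that in blood, with its standard error (SE). The SE is the moderated one of the fit to 8 mice, in which the variance of a probe set is drawn towards that of all probe sets. Some intensities were close to 0, and such values make a log2 difference very large, so the difference after adding 16 to every intensity is given as well where the 2 part. Intensities of different genes are not compared with one another. The median intensity of an array was 188 to 217 in cerebellum and 143 to 186 in blood. Arrays of a tissue resembled one another less in blood, where the mean correlation of an array with the others ran from 0.897 to 0.953, against 0.956 to 0.983 in cerebellum. The blood array at 0.897 was that of Tsc2 WT mouse 3, and the other 7 blood arrays reached at least 0.932. The median gene had an SD of 0.23 over the 8 cerebellum arrays and of 0.37 over the 8 blood arrays on the log2 scale with 16 added. The 1027 olfactory receptor genes, which serve as an example of genes little used in either tissue, had a median intensity of 46.0 to 68.8 on the cerebellum arrays and 52.0 to 77.1 on the blood arrays.

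Most probe sets were called as different between cerebellum and blood. At an adjusted p under 0.05, 21098 of 35556 probe sets (59.3%) were called, 13678 (38.5%) higher in cerebellum and 7420 (20.9%) lower, and at 2-fold or more, 8496 (23.9%) were higher and 4046 (11.4%) lower. Over the 19938 genes with a probe set of their own, 8708 (43.7%) were higher and 4186 (21%) lower, and the median difference was 0.29. The counts given below for each gene list stand against these shares. Calls were also made among the 1027 olfactory receptor genes, the example of genes little used in either tissue. Of these 117 were higher and 165 lower, with 30 and 30 at 2-fold or more, so a call alone does not show use of a gene. The split between higher and lower depended on the scaling of the arrays. After each array was centred on its own median, 9662 probe sets were higher and 13014 lower, and after a further quantile normalization 9819 were higher and 13898 lower, with the median of all probe sets at -0.11 and -0.17 in place of 0.29. Of the 12542 probe sets called at 2-fold or more, 12522 (99.8%) differed in the same direction in both experiments and 11164 (89.0%) in 8 of 8 mice. They were called on these same 8 mice, so the choice itself favoured agreement in direction, and these shares are not a replication.

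**Figure D1:**
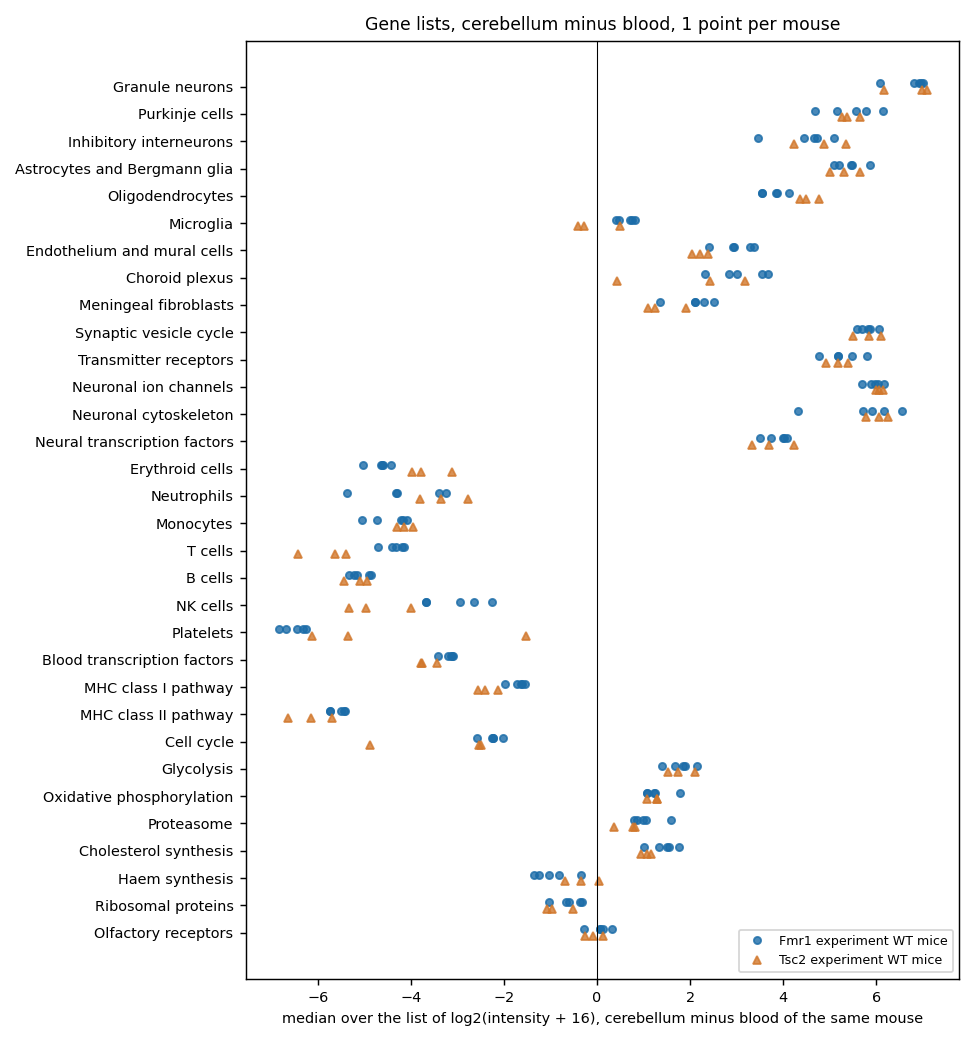
Median difference of each gene list between cerebellum and blood, on the log2 scale with 16 added, with 1 point for each of the 8 WT mice (circles, Fmr1 experiment, n = 5; triangles, Tsc2 experiment, n = 3). The lists of neurons and macroglia lay to the right of 0 and those of blood cells to the left in 8 of 8 mice, and 1 mouse of the Tsc2 experiment stood apart from the other 7 in the platelet and cell cycle lists.

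Many of the 15 genes with the largest excess in cerebellum are known from neurons, and several mark granule or Purkinje cells. Ppp1r17, a phosphatase inhibitor of Purkinje cells, had a lowest, median and highest intensity of 65352, 81306 and 100946 in cerebellum and of 27.8, 50.6 and 54.3 in blood, a difference of 10.83 ± 0.15 (adjusted p = 1.3e-09). No blood array came near a cerebellum array. Calb1, a calcium buffer of Purkinje cells, had 6260, 7196 and 8390 in cerebellum and 0.0084, 3.18 and 13.6 in blood. Its difference of 12.66 ± 1.19 was 8.54 with 16 added, since 2 blood values were under 0.06. Olfm3 (9.44 ± 0.17), Hpcal4, a neuronal calcium sensor (9.23 ± 0.21), Shisa6, a partner of AMPA receptors (9.21 ± 0.20), Dab1, the adaptor through which reelin signals (8.83 ± 0.14), Rims1, a scaffold of the presynaptic active zone (8.70 ± 0.15), Scrt1, a neuronal repressor (8.58 ± 0.14), Brsk2, a kinase of neuronal polarity (8.56 ± 0.12), and Clstn2, a synaptic adhesion protein (8.06 ± 0.09), were also among the 15, as were the granule cell genes Zic1, Zic2, Cbln1 and Slc17a7. Genes were eligible only if they had the same sign in 8 of 8 mice. The remaining gene was Nefm, the medium neurofilament subunit, at 70040, 139740 and 308596 in cerebellum. Its blood values were 25.3 to 72.1 in 7 mice and 4739 in Fmr1 WT mouse 1, whose blood also had the highest values of Nefl (335, against at most 1.16 in the other 7) and of Snap25 (110, against at most 33.9). In that blood array the median intensity of the 20 neuronal cytoskeleton genes was 143, against 23.2 to 43.7 in the other 7. The part of this array in the neuronal results was not tested, but without both of its mouse's arrays 18 of 20 of these genes were higher, against 19 with them.

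Granule neuron genes were higher in cerebellum without exception among those measured. All 17 passed the test and none of them overlapped between the tissues, where 39.7% of all genes had no overlap and 27.7% lay wholly above blood, and their median difference was 7.44 against 0.29 for all genes. Gabra6, the GABA receptor subunit that marks granule cells, had 3774, 4613 and 6506 in cerebellum and 6.86, 10.7 and 25.6 in blood, a difference of 8.65 ± 0.26 (adjusted p = 1.8e-08). The lowest cerebellum value was above the highest blood value by a wide margin. Slc17a7, the vesicular glutamate transporter of granule cells, had 5681, 7660 and 8212 in cerebellum and 0.0057, 17.8 and 31.3 in blood. Zic1, a transcription factor of granule cells and their precursors, had 4791, 5586 and 8261 in cerebellum and 0.012, 3.84 and 6.31 in blood. Barhl1, a transcription factor of the same lineage, had the smallest difference of the list at 1.25 ± 0.13. Of the Purkinje cell genes 13 of 13 were higher, with a median of 6.49. Pcp2, a modulator of G proteins found in Purkinje cells, had 3409, 4336 and 5199 in cerebellum and 2.05, 71.3 and 129 in blood, and Car8, an inactive relative of carbonic anhydrases, differed by 7.44 ± 0.41. Foxp2, a transcription factor, had the smallest difference of the list (1.96 ± 0.17). The 6 measured genes of inhibitory interneurons were higher too, among them Gad1, which makes GABA, at 2887, 3325 and 3848 in cerebellum and 26.2, 98.4 and 414 in blood (5.10 ± 0.38), and Slc6a5, the glycine transporter of Golgi cells (6.19).

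**Figure D2:**
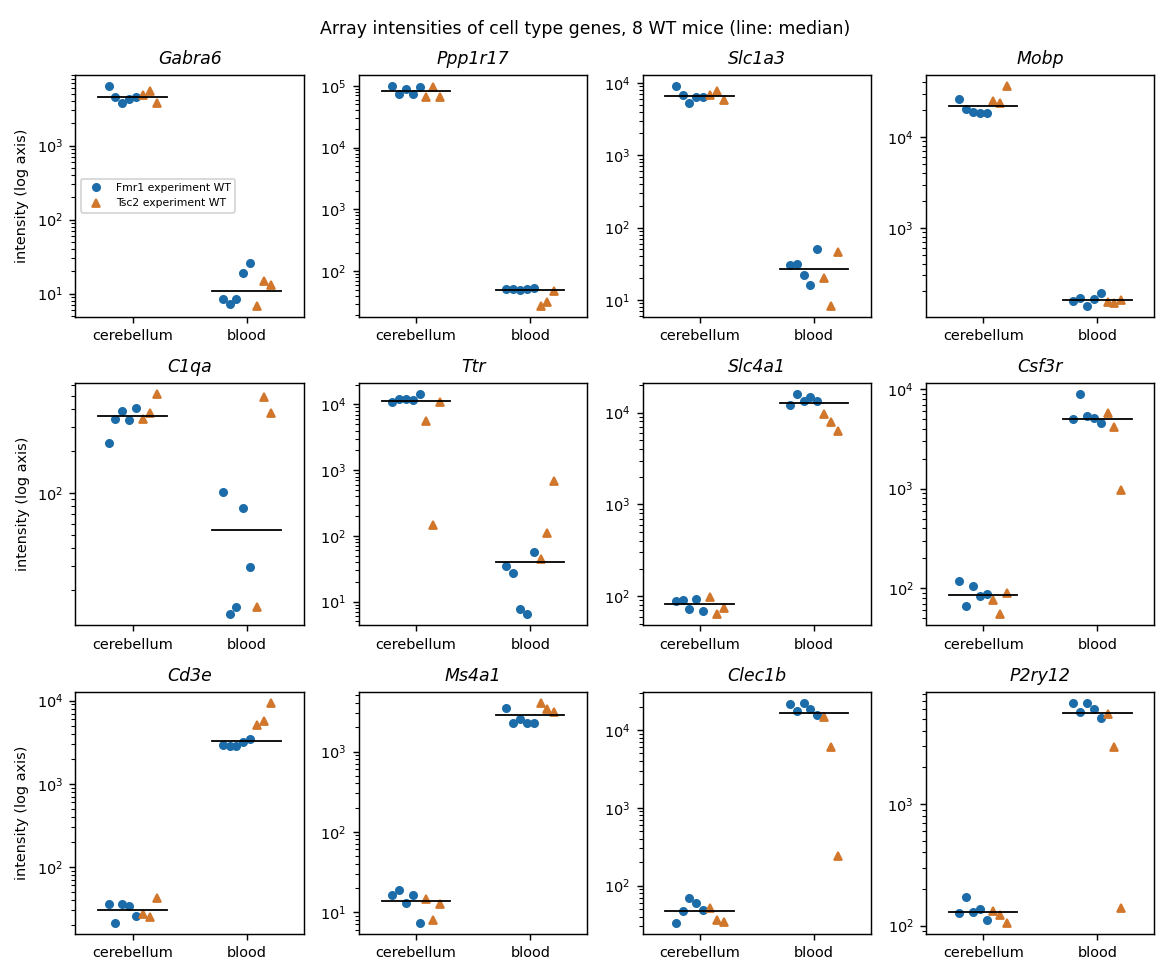
Intensity (log axis) of 12 cell type genes on each of the 8 cerebellum and 8 blood arrays, with circles for the Fmr1 experiment, triangles for the Tsc2 experiment and a line at the median. The tissues were far apart for the neuronal, glial and blood cell genes shown, while C1qa overlapped between tissues, Ttr was at 148 in 1 cerebellum and P2ry12 at 139 in 1 blood sample.

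Genes of the synapse and of neuronal excitability were higher in cerebellum with few exceptions. Of 21 measured genes of the synaptic vesicle cycle 20 were higher, of 21 transmitter receptor genes 20, of 16 neuronal ion channel genes 16 and of 20 neuronal cytoskeleton genes 19, with medians of 6.40, 6.48, 7.15 and 6.86. Among all genes 43.7% were higher. Snap25, a SNARE protein that drives vesicle fusion, had 6856, 7957 and 11787 in cerebellum and 4.83, 21.4 and 110 in blood. Kcna1, a Shaker type potassium channel of axons, had 3727, 4597 and 5390 in cerebellum and 0.0018, 2.19 and 20.4 in blood. Its difference of 14.44 ± 2.02 was 7.69 with 16 added, and that of Nefl, the light neurofilament subunit, was 17.23 ± 2.00 and 6.63, so the rank of such genes rests on values near 0. The members that did not pass the test were Stx1a, a SNARE protein (0.19 ± 0.12), the serotonin receptor gene Htr2a (0.33 ± 0.16) and the tubulin gene Tubb2a (-0.32).

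A short sequence element, 1 arm of the site of the neuronal repressor REST, is shown here because REST is known to keep neuronal genes silent in cells outside the nervous system. Its letters TTCAGCACC were searched on both strands in windows of 250 bases before to 50 bases after the start of each gene in the RefSeq annotation (GRCm38.p6). They were found for 117 of 27025 genes (0.433%), for 2 of the 20 synaptic vesicle genes with a window and for 1 of 7 Purkinje cell genes. The count was 0 of 13 granule neuron, 0 of 12 transmitter receptor, 0 of 13 ion channel, 0 of 11 cytoskeleton and 0 of 16 neural transcription factor genes. Among genes at least 16-fold higher in cerebellum with 16 added, 10 of 658 (1.52%) had them, and among those at least 16-fold lower 2 of 261 (0.766%). Of all measured genes with a window, 77 of 15614 (0.493%) had them. The other arm, GGACAGCG, was found for 21 (3.19%), 0 and 321 (2.06%) of the same sets. It was also found for 1 of 13 granule neuron and 2 of 14 cholesterol synthesis genes. The window of Unc13a, which primes vesicles for release and differed by 5.27 ± 0.34, lies at chr8:71671708-71672007 on the minus strand. Capitals mark the match to TTCAGCACC only, which is on the opposite strand.
Unc13a: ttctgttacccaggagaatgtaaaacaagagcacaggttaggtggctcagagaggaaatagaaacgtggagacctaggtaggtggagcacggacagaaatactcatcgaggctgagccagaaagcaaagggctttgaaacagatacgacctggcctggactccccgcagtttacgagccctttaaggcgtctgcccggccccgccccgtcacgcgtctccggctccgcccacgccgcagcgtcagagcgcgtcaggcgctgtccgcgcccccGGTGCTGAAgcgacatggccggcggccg

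Genes of astrocytes, Bergmann glia and oligodendrocytes were higher in cerebellum as well. All 15 measured astrocyte and Bergmann glia genes passed, with a median of 6.10. Slc1a3, a glutamate transporter abundant in Bergmann glia, had 5301, 6615 and 9185 in cerebellum and 8.33, 26.5 and 51.4 in blood (8.09 ± 0.31). Aqp4, the water channel of astrocyte endfeet, had 1877, 2263 and 3095 in cerebellum and 2.20, 12.2 and 28.0 in blood (7.75 ± 0.40). Both genes thus had blood values far under the lowest cerebellum value. The smallest differences in the list were those of Glul, glutamine synthetase, at 1.16 ± 0.15, and of Gfap, an intermediate filament, at 2.69 ± 0.21. Of the oligodendrocyte genes 14 of 14 passed, with a median of 4.79. Mobp, a myelin protein, had 18182, 21890 and 36781 in cerebellum and 139, 160 and 192 in blood (7.15 ± 0.15). Olig2, a transcription factor of the lineage, had 213, 262 and 508 in cerebellum and blood values of 12.1 in 1 mouse and at most 0.742 in the other 7, so its difference of 14.08 fell to 4.16 with 16 added. Cnp, an enzyme of myelin, had the smallest difference of the list (0.81 ± 0.12).

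Of 15 microglial genes measured, 7 were higher in cerebellum, 4 lower and 4 did not pass, shares close to the 43.7% higher and 21% lower among all genes. Their median of 0.60 was -0.20 in the Tsc2 experiment alone, where 2 were higher and 0 lower. The 3 genes of complement C1q, made by microglia, were among the 7: C1qa had 229, 357 and 513 in cerebellum and 13.4, 53.7 and 486 in blood (2.62 ± 0.65), and the blood samples of Tsc2 WT mice 2 and 3 lay within the cerebellum range. C1qb passed narrowly (1.91 ± 0.73, adjusted p = 0.049), and in the blood of the same 2 mice it reached 2211 and 2276, above the highest cerebellum value of 766, and its difference in the Tsc2 experiment alone was -0.20. Tmem119, a membrane protein of microglia, differed by 0.64 ± 0.14 with no overlap. The 4 lower genes are used by blood cells too. P2ry12, an ADP receptor of microglia and platelets, had 106, 128 and 172 in cerebellum and 2956 to 6824 in 7 blood samples, against 139 in the blood of Tsc2 WT mouse 3 (-4.73 ± 0.57). Csf1r, the receptor for macrophage growth factor on monocytes and microglia, differed by -1.26 ± 0.15, Cx3cr1, the fractalkine receptor of the same cells, by -0.72 ± 0.16 and Aif1, a calcium-binding protein of macrophages, by -0.55. With each array centred on its median, 4 genes of the list were higher and 4 lower, and after a further quantile normalization 3 and 6.

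Most measured genes of vessels, choroid plexus and meninges were higher in cerebellum. Of 13 endothelial and mural genes 12 were higher (median 2.78). Cldn5, the tight junction protein of the blood-brain barrier, had 586, 799 and 958 in cerebellum and 2.58, 34.2 and 119 in blood. Pecam1, an adhesion protein that leukocytes and platelets also carry, was the exception, with 144, 170 and 211 in cerebellum and 996, 2296 and 2748 in blood (-3.54 ± 0.21). Of 8 choroid plexus genes 7 were higher (median 3.18), and Aqp1, a water channel of both choroid plexus and red cells, was lower (-2.75 ± 0.22). Ttr, the thyroxine carrier secreted by choroid plexus, had 5634 to 14404 in 7 cerebella and 148 in that of Tsc2 WT mouse 2, against 6.42 to 110 in 7 blood samples and 693 in the blood of Tsc2 WT mouse 3. In the cerebellum of Tsc2 WT mouse 2 the folate receptor gene Folr1 was at 69.6, where the other 7 had 205 to 608. Both genes thus had their lowest cerebellum value in the same mouse, and in the Tsc2 experiment alone 2 of the 8 genes were higher. Of 6 meningeal and fibroblast genes 6 were higher (median 1.91), and 4 of 6 after centring or a further quantile normalization. Ptgds, a prostaglandin synthase of the meninges, had 2847, 5454 and 7348 in cerebellum and 0.81, 22.6 and 153 in blood, with no overlap. Col1a1, a collagen chain, had the smallest difference of the list (0.38 ± 0.12), with overlap between tissues.

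On the blood side, the 15 genes with the largest deficit in cerebellum covered several cell types. Gda, guanine deaminase, had 17.4, 23.2 and 35.4 in cerebellum and 6369, 9452 and 10842 in blood (-8.60 ± 0.18, adjusted p = 4.3e-09). Ctse, the protease cathepsin E (-8.66 ± 0.20), and Tent5c, a poly(A) polymerase (-7.61 ± 0.17), were lower by similar amounts. The interferon-responsive genes Isg20, an exonuclease (-8.08 ± 0.17), Rsad2, an antiviral enzyme (-8.13 ± 0.17), and Ube2l6, which conjugates ISG15 (-7.75 ± 0.15), were among them. So were genes of dividing cells, Knl1, a kinetochore scaffold (-8.81 ± 0.20), Nusap1, which bundles spindle microtubules (-7.60 ± 0.24), and Depdc1b (-7.00 ± 0.15). The others were the red cell anion exchanger Slc4a1, the platelet genes Clec1b, Ppbp and Rgs18, the B cell receptor component Cd79a and the invariant chain Cd74.

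Erythroid genes were lower in cerebellum in 19 of 20 cases, with a median of -4.66. Slc4a1 had 63.6, 81.1 and 98.0 in cerebellum and 6251, 12637 and 15906 in blood (-7.11 ± 0.15), and Alas2, which starts haem synthesis in red cells, had 161, 219 and 243 in cerebellum and 16194, 18096 and 18817 in blood (-6.46 ± 0.10). For these 2 genes the blood values of the 8 mice lay within a factor of 3 of one another. Over the list, the median blood intensity was 2257 to 3106 in the Fmr1 experiment and 901 to 1777 in the Tsc2 experiment. The median differences were -5.04 and -4.02 in the same order. The limma test between experiments gave an unadjusted p under 0.05 for 14 of the 20 genes, against 19.9% of all probe sets. After adjustment 0 of these genes passed. The cause was not tested. Kel, a blood group protein, differed by -7.37 ± 0.23, and Bpgm, which makes the regulator of haemoglobin's oxygen affinity, by -5.07 ± 0.16. Tfrc, the transferrin receptor used by most dividing cells, had the smallest difference that passed (-0.63 ± 0.22), and Sptb, spectrin beta, did not pass (-0.27 ± 0.15). The probe sets of the haemoglobin genes carry several gene names each and were not used here. Haem synthesis was divided: of 11 genes 6 were lower, where 21% of all genes were, including Slc25a37, the iron carrier of erythroid mitochondria (-5.67 ± 0.10). Alad, the second enzyme of the pathway, was higher (1.18 ± 0.16).

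Platelet genes were lower in 10 of 10 cases (median -6.09), and 1 blood sample stood apart. Clec1b, a platelet activation receptor, had 33.2, 47.6 and 69.0 in cerebellum and 6063 to 22570 in 7 blood samples, against 241 in the blood of Tsc2 WT mouse 3 (-7.66 ± 0.65). Tubb1, the tubulin of the platelet rim, had 272, 412 and 516 in cerebellum and 30166 to 69102 in 7 blood samples, against 653 in that sample. Ppbp, a platelet chemokine, had 912 there, where the other 7 had 12502 to 17800. The median intensity of the 10 genes was 288 in that sample and 3953 to 8954 in the others, and 55.1 to 86.3 in cerebellum. In the same blood sample the 24 cell cycle genes had a median of 2675, against 420 to 600 in the others, and the T cell genes one of 5745, against 1622 to 3958. The cause was not tested. Without this mouse 10 of 10 platelet genes were lower, with a median of -6.59, and in the Tsc2 experiment alone 5 of 10 were.

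GATA factors drive red cell and platelet genes, and the windows of a gene from each list are shown with the GATA motif AGATAA, searched on both strands, in capitals. The motif was found for 3432 of 27025 genes (12.7%), for 5 of 14 erythroid genes and for 4 of 9 platelet genes with a window. Its share was also above that of all genes in other lists, with 242 of 866 olfactory receptor genes (27.9%), 3 of 5 MHC class II genes and 3 of 13 granule neuron genes. That of Kel is chr6:41704276-41704575 on the minus strand and that of Clec1b chr6:129397047-129397346 on the plus strand, both in GRCm38.p6.
Kel: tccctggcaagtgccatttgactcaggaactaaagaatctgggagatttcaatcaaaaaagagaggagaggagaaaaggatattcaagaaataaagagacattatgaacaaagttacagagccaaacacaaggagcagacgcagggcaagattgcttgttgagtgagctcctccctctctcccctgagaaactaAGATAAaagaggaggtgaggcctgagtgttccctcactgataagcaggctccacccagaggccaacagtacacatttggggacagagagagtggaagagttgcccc
Clec1b: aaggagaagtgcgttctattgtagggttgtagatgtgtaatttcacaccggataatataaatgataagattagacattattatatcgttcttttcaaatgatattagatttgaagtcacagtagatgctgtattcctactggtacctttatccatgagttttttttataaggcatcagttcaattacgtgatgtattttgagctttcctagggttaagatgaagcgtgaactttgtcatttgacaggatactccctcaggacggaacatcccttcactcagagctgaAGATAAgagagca

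Myeloid genes were lower in cerebellum in nearly every case. Of 17 neutrophil genes 15 passed (median -4.28), and of 9 monocyte genes 9 (median -4.94). Csf3r, the receptor for granulocyte growth factor, had 54.9, 85.9 and 117 in cerebellum and 965, 5037 and 8916 in blood (-5.71 ± 0.34), and Cxcr2, a chemokine receptor of neutrophils, had 3.92, 12.3 and 17.7 in cerebellum and 267, 1812 and 2921 in blood (-7.03 ± 0.42). The lowest blood value of either gene was that of Tsc2 WT mouse 3. S100a8, an abundant calcium-binding protein of the neutrophil cytosol, differed by -4.28 ± 0.29, and Ltf, lactoferrin, by -4.25 ± 0.54. The smallest differences in the list included those of Elane, neutrophil elastase, at -0.74 ± 0.22, Mpo, myeloperoxidase, at -0.72 ± 0.20 and Camp, cathelicidin, at -0.06 ± 0.27, the last of which did not pass. Lyz2, the lysozyme of monocytes and neutrophils, differed by -5.43 ± 0.12, and Cd14, the endotoxin co-receptor, by -0.66 ± 0.13. The motif GAGGAAGT, a site for the myeloid factor PU.1, was in the windows of 5 of 16 neutrophil genes and of 997 of 27025 genes (3.69%). Of the 658 genes with a window that were at least 16-fold higher in cerebellum with 16 added, 12 (1.82%) had it, and of the 261 at least 16-fold lower, 26 (9.96%). Spi1, which encodes PU.1, was lower in cerebellum (-4.99 ± 0.17), and a link between its level and these genes was not tested. The window of Mmp8, the neutrophil collagenase (-5.61 ± 0.29), is shown with the match, on the opposite strand, in capitals (chr9:7558179-7558478, plus strand, GRCm38.p6).
Mmp8: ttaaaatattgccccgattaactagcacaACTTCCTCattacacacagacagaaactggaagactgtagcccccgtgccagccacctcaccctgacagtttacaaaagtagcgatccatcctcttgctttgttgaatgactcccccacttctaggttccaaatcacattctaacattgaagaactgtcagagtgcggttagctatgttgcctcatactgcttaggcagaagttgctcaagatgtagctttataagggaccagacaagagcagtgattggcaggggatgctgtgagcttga

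Lymphocyte genes were lower in cerebellum, with 15 of 15 T cell genes (median -5.10), 16 of 16 B cell genes (median -5.52) and 10 of 11 NK cell genes (median -3.98). In the Fmr1 and Tsc2 experiments the medians were -4.54 and -6.09 for T cells, -5.63 and -5.36 for B cells and -3.44 and -5.14 for NK cells. The limma test between experiments gave an unadjusted p under 0.05 for 13, 1 and 7 genes in this order, against 19.9% of all probe sets. After adjustment 0 of these genes passed. Cd3e, a chain of the T cell receptor complex, had 21.3, 30.6 and 41.8 in cerebellum and 2832, 3315 and 9471 in blood (-7.07 ± 0.21). Its 3 highest blood values were those of the Tsc2 experiment, at 5112, 5770 and 9471. Ms4a1, the B cell protein CD20, had 7.32, 13.7 and 18.7 in cerebellum and 2247, 2837 and 4074 in blood (-7.82 ± 0.20). Il7r, the interleukin 7 receptor, differed by -7.81 ± 0.18 and Cd79a by -8.40 ± 0.42. Ebf1, a transcription factor that directs B cells and is used in other tissues, had 835, 963 and 1647 in cerebellum and 1120, 1363 and 1879 in blood, and its difference of -0.49 ± 0.12 was the smallest among B cell genes. Among NK cell genes, Ncr1, an activating receptor, differed by -6.03 ± 0.26, and the receptor gene Klre1 did not pass (-0.22 ± 0.15). The 8 measured genes of the MHC class II pathway, which B cells and other presenting cells use, were lower (median -6.61), with Cd74 at 31.5, 52.1 and 158 in cerebellum and 6114, 7689 and 10400 in blood. The 10 genes of the MHC class I pathway were lower as well, by less (median -1.94). B2m, the invariant light chain, had 1379, 3578 and 6428 in cerebellum and 11475, 14432 and 15071 in blood (-2.11 ± 0.23).

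Of 24 neural factors 23 were higher in cerebellum, among them En2, which patterns the hindbrain (7.04 ± 0.25), and Pax6, a factor of granule cell precursors (7.01 ± 0.33). Mef2c, which acts in neurons and also in B cells and megakaryocytes, was lower, with 452, 502 and 565 in cerebellum and 954, 1406 and 1723 in blood (-1.45 ± 0.11). Of 25 blood factors 23 were lower and none higher, among them Ikzf3, a factor of lymphocytes (-7.50 ± 0.31), and Gata1, which directs red cells and platelets (-3.97 ± 0.29). Among all genes 43.7% were higher and 21% lower. Cell cycle genes were lower in 22 of 24 cases (median -2.82). Mki67, a protein of dividing cells, had 19.1, 23.2 and 36.0 in cerebellum and 1554, 1834 and 3873 in blood (-6.36 ± 0.20), and Pcna, the sliding clamp of DNA replication, did not pass (-0.01 ± 0.27).

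Genes that every nucleated cell uses differed by less, and by pathway. Their counts stand against 43.7% higher and 21% lower among all genes. Oxidative phosphorylation genes were higher in cerebellum in 60 of 74 cases and lower in 1, with a median of 1.24 (0.85 after centring each array on its median). Ndufv1, a core subunit of complex I, differed by 2.73 ± 0.16, and the exception was Ndufa3, an accessory subunit (-1.14 ± 0.20). Glycolysis genes were higher in 11 of 13 cases (median 1.69). Eno2, the neuronal enolase, had 3618, 6907 and 8132 in cerebellum and 0.0038, 24.1 and 48.6 in blood, and Pfkm, a phosphofructokinase, differed by 5.10 ± 0.25. Hk1, a hexokinase of neurons and red cells, was lower, with 1534, 1763 and 3482 in cerebellum and 5164, 5684 and 6828 in blood (-1.60 ± 0.14), and Ldha did not pass (0.02 ± 0.16). Proteasome genes were higher in 28 of 39 cases and lower in 5 (median 0.96). The 5 included the 3 catalytic subunits of the immunoproteasome, the form of leukocytes: Psmb8 (-3.24 ± 0.21), Psmb9 (-1.77 ± 0.19) and Psmb10 (-0.48 ± 0.17). The others were Psmd4, a ubiquitin receptor (-1.08 ± 0.22), and Psma8, a subunit known from testis (-0.71 ± 0.15). Ribosomal protein genes ran the other way, with 45 of 61 lower and 4 higher (median -0.73). Rplp2, of the ribosomal stalk, differed by -2.13 ± 0.16 and Rpl22 by 0.62 ± 0.17. With each array centred on its median 56 were lower and 0 higher. The motif GCATGCGC of the factor NRF1, a known regulator of respiratory genes, was in 10 of 61 oxidative phosphorylation windows (16.4%). It was in 824 of all 27025 windows (3.05%) and in 667 of the 15614 of measured genes (4.27%). Other lists had it too, with 2 of 9 haem synthesis windows (22.2%) and 2 of 20 synaptic vesicle windows (10%). The window of Uqcr11, a complex III subunit (2.43 ± 0.28), is shown with the motif in capitals. This window lies at chr10:80406772-80407071 on the minus strand (GRCm38.p6).
Uqcr11: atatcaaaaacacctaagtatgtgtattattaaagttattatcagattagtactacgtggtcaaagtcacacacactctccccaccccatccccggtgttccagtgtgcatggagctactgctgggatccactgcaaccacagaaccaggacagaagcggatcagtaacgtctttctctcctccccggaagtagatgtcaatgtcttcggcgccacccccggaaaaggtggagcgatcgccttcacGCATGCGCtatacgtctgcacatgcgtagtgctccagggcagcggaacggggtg

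Cholesterol synthesis genes were higher in cerebellum in 14 of 17 cases (median 1.42), against 43.7% of all genes. Sterols are a main constituent of myelin, and a link between myelin and these values was not tested. Hmgcs1, an early enzyme of the pathway, had 1188, 1494 and 2398 in cerebellum and 84.1, 217 and 551 in blood (2.90 ± 0.22), and Sqle, which commits squalene to sterols, differed by 2.35 ± 0.20. The highest blood value of both genes was that of Tsc2 WT mouse 3. Ggps1, which makes the lipid anchor of small GTPases, was lower (-1.40 ± 0.20). The box CCAAT, bound by NF-Y, was in the windows of 14 of 14 cholesterol genes, of 5 of 5 MHC class II genes and of 11096 of 27025 genes (41.1%), so it stood in lists that moved in opposite directions. The window of Hmgcs1 held 4 matches, all on the opposite strand (chr13:119690101-119690400, plus strand, GRCm38.p6).
Hmgcs1: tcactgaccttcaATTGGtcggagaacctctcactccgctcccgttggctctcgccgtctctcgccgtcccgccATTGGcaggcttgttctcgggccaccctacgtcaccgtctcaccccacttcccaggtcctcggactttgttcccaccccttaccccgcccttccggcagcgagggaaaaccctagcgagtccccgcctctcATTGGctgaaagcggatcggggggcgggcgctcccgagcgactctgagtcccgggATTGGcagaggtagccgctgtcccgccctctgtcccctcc

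A set of 41 pairs of related genes was put together from a neural form and a relative used by blood or other cells, so that opposite directions were what the choice favoured. Of these pairs, 32 had both genes measured, and in 19 the first was higher and the second lower in cerebellum. In 3 pairs both were higher, in 4 both lower, and in 6 at least 1 gene did not pass. In the pair Snap25 and Snap23, SNARE proteins of synapses and of other secretory cells, the differences were 8.57 and -4.19. For Tubb3 and Tubb1, the tubulins of neurons and of platelets, they were 4.42 and -6.31, and for the anion exchangers Slc4a3 and Slc4a1, 3.77 and -7.11. Dock3 and Dock2, exchange factors for Rac, differed by 8.28 and -5.61, Rac3 and Rac2 themselves by 2.23 and -5.87, and the profilins Pfn2 and Pfn1 by 6.11 and -2.89. The splicing repressors Ptbp2, the neuronal form, and Ptbp1 differed by 1.87 and -1.91. The first gene of the pair had the larger difference in 31 of 32 pairs, and the exception was Hk1 and Hk3. In the Tsc2 experiment alone 16 pairs were opposed.

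**Figure D3:**
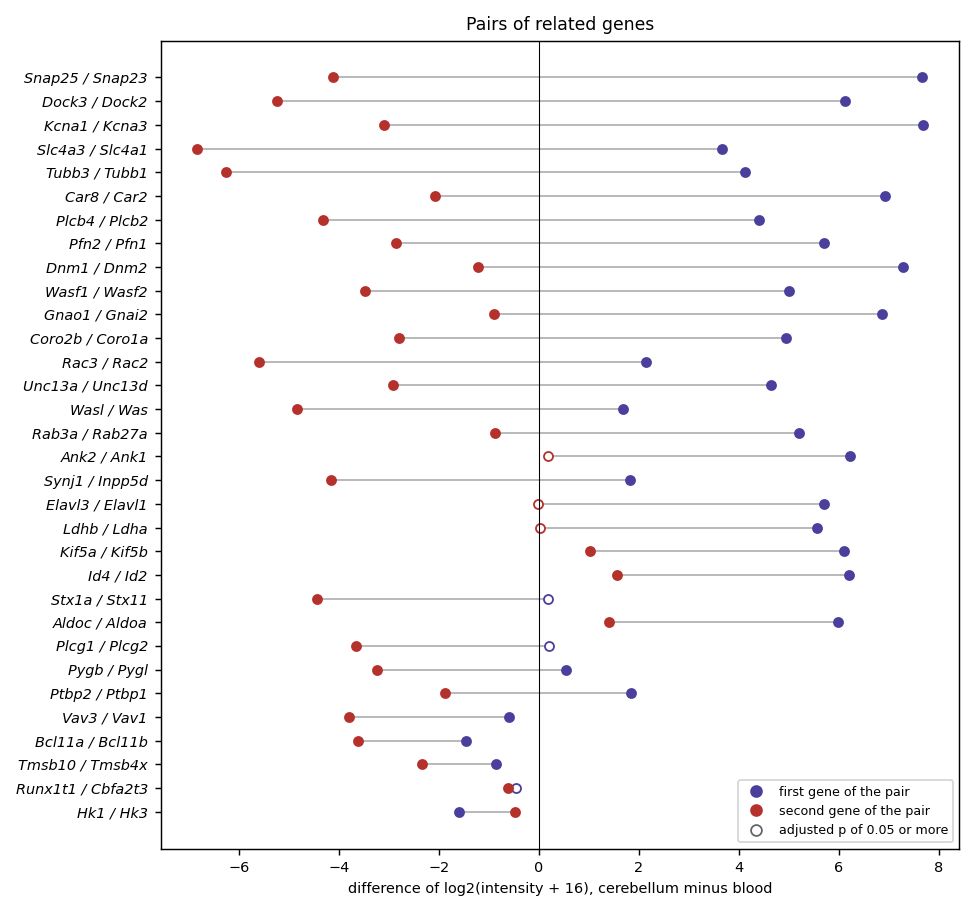
Difference of log2(intensity + 16), cerebellum minus blood, for the 2 genes of 32 related pairs, with open circles for an adjusted p of 0.05 or more. In 19 pairs the first gene, chosen as the neural form, lies to the right of 0 and the second, chosen as the form of blood or other cells, to the left.

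MicroRNA genes of the imprinted Dlk1-Dio3 region on chromosome 12 were higher in cerebellum almost throughout. These genes, examined after other results had been seen, lie between the start of Meg3 and a short fixed distance past the end of Mirg. Some lie within the annotated long RNAs Meg3, Rian and Mirg and others outside them. An array of this kind cannot tell a precursor from a longer RNA that holds it. Of the 60 miRNA genes of this stretch in the RefSeq annotation, 40 had a probe set of their own, of which 36 (90%) were higher, 0 lower and 4 did not pass. Among the other miRNA genes measured, 91 (35.5%) were higher and 44 (17.2%) lower. Meg3 had 2845, 3549 and 4599 in cerebellum and 14.0, 94.8 and 130 in blood (5.75 ± 0.32), and Rian 307, 347 and 442 in cerebellum and 8.01, 44.0 and 47.9 in blood (3.40 ± 0.26). Mir382 had 409, 552 and 587 in cerebellum and 7.52, 14.0 and 21.1 in blood (5.33 ± 0.18), and Mir134, whose product acts at dendritic spines, had 739, 921 and 1069 in cerebellum and 83.1, 116 and 210 in blood (2.94 ± 0.15). Neither gene overlapped between tissues. Mir154, Mir376b and Mir381 differed by 2.97, 2.71 and 1.61 with 16 added. Mir673, Mir299a, Mir666 and Mir667 lay between -0.16 and 0.00. With each array centred on its median 31 were higher and 3 lower, after a further quantile normalization 30 and 4, and in the Tsc2 experiment alone 28 and 0.

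The mature sequences of 5 of the genes above and of 4 miRNA genes that were lower in cerebellum are given from RefSeq, with the seed (bases 2 to 8), which pairs with target RNAs, in capitals. Each seed is different, although Mir379 and Mir411 of the region share the 3′ arm seed AUGUAAC and Mir376b and Mir376c the 5′ arm seed UGGAUAU.
mmu-miR-382-5p: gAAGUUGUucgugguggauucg
mmu-miR-134-5p: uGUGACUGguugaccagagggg
mmu-miR-154-5p: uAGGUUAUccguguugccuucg
mmu-miR-376b-3p: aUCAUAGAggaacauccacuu
mmu-miR-381-3p: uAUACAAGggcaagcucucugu
mmu-miR-142a-3p: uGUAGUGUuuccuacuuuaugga
mmu-miR-155-5p: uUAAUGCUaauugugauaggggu
mmu-miR-27a-3p: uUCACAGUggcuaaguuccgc
mmu-miR-146b-5p: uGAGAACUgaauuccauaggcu
The last 4 belong to genes with known roles in blood cells. Mir142 had 35.9, 46.7 and 53.3 in cerebellum and 160, 227 and 384 in blood (-2.29 ± 0.18). Mir155, induced in activated lymphocytes, differed by -1.68 ± 0.21, Mir27a by -1.55 ± 0.19 and Mir146b by -1.52 ± 0.16. None of the 4 overlapped between tissues, where 12.1% of all genes lay wholly below blood. The 4 were picked among the lower miRNA genes after the data were seen, so the choice favoured a lack of overlap.

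**Figure D4:**
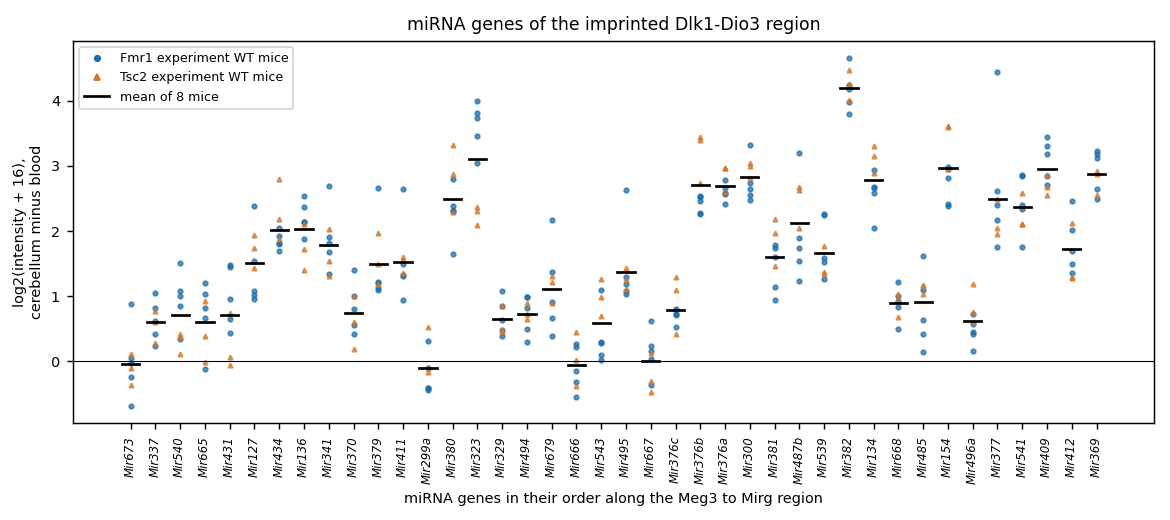
Difference of log2(intensity + 16), cerebellum minus blood, for the 40 measured miRNA genes in their order along the region, with 1 point for each of 8 mice and a bar at the mean. The bars of 36 genes that passed lie above 0, highest for Mir382 at 4.20, and those of Mir673, Mir299a, Mir666 and Mir667 lie at or close to 0.

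Genes close to equal in the 2 tissues depended on the scaling. As deposited, of 6620 genes with a mean intensity above a fixed minimum in each tissue, 1006 (15.2%) had a 95% interval of the difference inside ±0.5 on the log2 scale. The 10 closest to 0 included Arpc4, a subunit of the actin-nucleating Arp2/3 complex, with 1276, 1417 and 1638 in cerebellum and 1192, 1487 and 1719 in blood (-0.04 ± 0.08), Ubxn7, an adaptor of the ATPase p97, at -0.01 ± 0.09, Lats2, a kinase of the Hippo pathway, at 0.01 ± 0.10, Bcas3 at 0.00 ± 0.10 and the transcription factor gene Sox13 at 0.01 ± 0.09. After centring each array on its median these 5 genes lay between -0.44 and -0.38, and after a further quantile normalization between -0.44 and -0.27, and all 5 passed the test as lower under both. Fmr1, which encodes the RNA-binding protein lost in fragile X syndrome, had 832, 877 and 917 in cerebellum and 335, 582 and 827 in blood (0.62 ± 0.13, adjusted p = 0.0032). Tsc2, which encodes tuberin, had 829, 1078 and 1453 in cerebellum and 613, 691 and 1008 in blood (0.56 ± 0.12, adjusted p = 0.0030). The difference of Fmr1 was 0.53 in Tsc2 experiment mice and 0.68 in Fmr1 experiment mice, and that of Tsc2 was 0.48 and 0.61 in the same order. Neither call held under another scaling: after centring, Fmr1 was at 0.23 (adjusted p = 0.148) and Tsc2 at 0.17 (adjusted p = 0.256), and after a further quantile normalization Fmr1 was at 0.23 (adjusted p = 0.0861) and Tsc2 at 0.20 (adjusted p = 0.152).

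The comparison was repeated within each experiment. In the Fmr1 experiment alone, 20304 probe sets were called, and in the Tsc2 experiment alone, with 3 mice, 11223. Of these, 10225 were called in the same direction in both, 50.4% and 91.1% of each set of calls, and 11 in opposite directions. The test of the difference itself called 3 probe sets (0.00844%), while 7092 (19.9%) had an unadjusted p under 0.05. The only one with a gene name was that of Atp6v0d2, a subunit of the vacuolar proton pump of macrophages and osteoclasts. It had 41.3 to 54.2 in cerebellum and 1395 to 6424 in blood in the Fmr1 experiment, and 40.9 to 55.7 in cerebellum and 46.9 to 57.8 in blood in the Tsc2 experiment, so that the differences were -0.19 in the Tsc2 experiment and -5.96 in the Fmr1 experiment (adjusted p of the difference between experiments = 0.034).

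The genes next in order did not pass, and were picked after their values were seen. Plet1, a surface protein of epithelia, had blood intensities of 98.2 to 145 in the mice of the Tsc2 experiment, against 1105 to 2301 in those of the Fmr1 experiment. Car4, a membrane-bound carbonic anhydrase, had 8.42 to 25.2 in the blood of the Tsc2 experiment, against 254 to 870 in that of the Fmr1 experiment, and Mt2, a metallothionein, had 144 to 488 against 3310 to 6023. The reverse was found for Trgv1, a gamma delta T cell receptor segment, with 1400 to 2503 in Tsc2 experiment blood against 137 to 212 in Fmr1 experiment blood, and for Cxcr6, a chemokine receptor of T and NK cells, with 689 to 2755 against 165 to 212. In each of these 5 genes it was the blood values that parted, since in cerebellum the ranges of the 2 experiments overlapped. The cause was not tested.

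**Figure D5:**
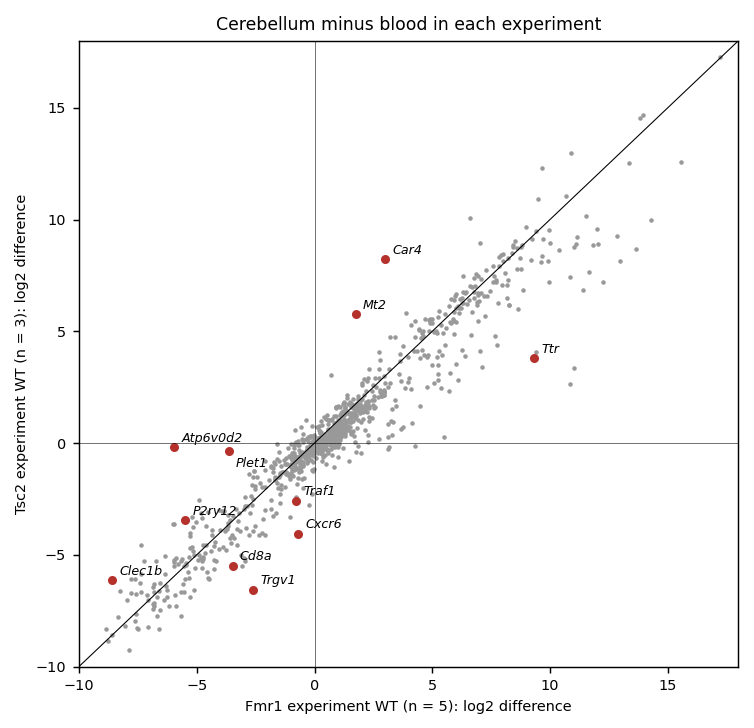
Log2 difference, cerebellum minus blood, in the Fmr1 experiment (horizontal axis, n = 5 mice) and in the Tsc2 experiment (vertical axis, n = 3 mice) for the 953 named or listed genes, with the diagonal of equal differences. Most points lie along the diagonal, and Atp6v0d2, at -5.96 and -0.19, is far from it.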

How the data were processed

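RNA from the cerebellum and blood of 8 WT mice had been extracted with Trizol, labelled with biotin and hybridised to Affymetrix Mouse Gene ST arrays. The authors deposited linear intensities of 35556 probe sets, made from all 32 arrays of the series with Affymetrix Power Tools by quantile normalization and the PLIER model. Tool versions and the genome build were not given in the sources used here. The number of arrays limits the precision.

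The log2 of the intensity was tested with limma 3.58.1 in R 4.3.3 (lmFit, eBayes) with the mouse as a fixed term, and p-values were adjusted by Benjamini-Hochberg over all probe sets, with calls at an adjusted p under 0.05. The pairing came from the labels, which number the blood and the cerebellum of a mouse alike, and the within-mouse correlation over all probe sets was 0.0036. The spread is that between mice. Where a gene had several probe sets, the one with the highest mean over the 16 WT arrays was used, and probe sets with several gene names were not used for genes. Of 999 genes with over 1 probe set, 70 had probe sets called in opposite directions.

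Genes named in the text were the 15 with the largest difference in each direction (16 added, same sign in 8 of 8 mice), the defining, most extreme and discordant members of the lists, the related pairs, the 10 genes closest to equal, those with a tissue by experiment difference, and Fmr1, Tsc2 and the sex-linked genes. miRNA genes and the genes next in order were added after seeing the data. The members and lists were chosen with earlier results of these data known. Promoter windows, miRNA and protein-coding gene names came from RefSeq tables (GRCm38.p6), and 16 motifs were searched on both strands: AGATAA for GATA factors, GAGGAAGT for PU.1, TTCAGCACC and GGACAGCG for REST, CCAAT for NF-Y, GCATGCGC for NRF1, CCACCC for the GT box, CCGGAAGT and AGGAAG for ETS factors, CTTTCC for the TCT motif, TGACGTCA for CRE, CAGCTG for the E-box, TCACCCCAC for SRE, GTTGCC for the X-box, and the ISRE and YY1 motifs. The short ETS motif lies within that of PU.1. The fitting code was tested on simulated data. Alternatives were the block, an offset of 16, further scaling, filters, moderation, single experiments, all 32 arrays and leaving out mice.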

Additional observations from a re-analysis of the deposited data

Results flagged for a closer look

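Among 66 sets of 8 arrays (each list's median log2 of intensity plus 16, in each tissue), 10 held an array far from the other 7 by Dixon's criterion, which chance gives in about 1 of 20 sets. The blood of Tsc2 WT mouse 3 accounted for 4 of them, being highest for the astrocyte and Bergmann glia list at 6.99, for cholesterol synthesis at 9.15 and for the cell cycle at 11.4, and lowest for platelets at 8.23. The blood of Fmr1 WT mouse 1 was highest for the neuronal cytoskeleton at 7.31, and that of Fmr1 WT mouse 5 for olfactory receptors at 6.54. Among cerebellum arrays, Tsc2 WT mouse 3 was highest for transmitter receptors at 11.6 and for haem synthesis at 9.25, Fmr1 WT mouse 1 was highest for the synaptic vesicle list at 12.1, and Fmr1 WT mouse 3 was lowest for glycolysis at 11.8. The causes were not tested.

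The difference of Atp6v0d2 between cerebellum and blood was 5.77 higher in the Tsc2 experiment than in the Fmr1 experiment on the log2 scale (limma, adjusted p = 0.034), and the test of the difference itself singled it out. Strain and experiment cannot be told apart here.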

How the results depend on the processing

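Without the replicate block, that is with no pairing by mouse, 224 probe sets differed between experiments in place of 3, and with the mouse as a random block 227. This count was also 21 with 16 added, 6 after a further quantile normalization, 5 after centring each array, 5 with a filter at 64, 8 over probe sets with a single gene name, 1 without moderation, 8 with an intensity trend, 7 without both mice whose blood arrays stood apart (chosen after seeing the data), and 1 to 36 with 1 mouse left out, where 36 was reached without Tsc2 WT mouse 1 and 17 without Fmr1 WT mouse 1. Probe sets lower in cerebellum, 7420 of 35556 in the main fit, numbered 13898 after the quantile normalization and 13014 after centring. In the Tsc2 experiment alone they numbered 4303, where 6920 were higher. Over single gene names only 21789 probe sets were tested, of which 4753 were lower, so that count is not comparable with 7420. At 2-fold or more, 6580 of 35556 were lower after the quantile normalization, against 4046 in the main fit, and 2448 of the 21789 with a single gene name. The median of all probe sets was -0.17, -0.11 and, in the Tsc2 experiment alone, 0.052. With 1 mouse left out, 12229 to 15027 were higher and 6864 to 7480 lower. The microglial median was -0.20 in the Tsc2 experiment alone, which was the value of C1qb. The olfactory receptor median of 0.02 was -0.49 after the quantile normalization, -0.37 after centring, -0.032 with the filter and -0.11 in the Tsc2 experiment alone, and -0.043 to 0.082 with 1 mouse left out. Of 160 genes named in the text, 116 kept their call and direction in every alternative. Under either further scaling C1qb, Tmem119, Rpl22, Kdm5d, Fmr1 and Tsc2 lost their call, and Col1a1 was at -0.085 after the quantile normalization and -0.014 after centring. In the same settings 10 and 11 named genes gained a call as lower, among them Klre1 (-0.59 and -0.61) and the 5 named as close to equal. Without the block Htr2a gained a call. The causes were not tested.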
